A study of Homo sapiens with 42 samples.

Results

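The 6 samples of the 22RV1 line were taken by their titles from the 42 samples of an ATAC-seq series. For 4 h, 3 biological replicates were treated with FHT-1015 and 3 with DMSO, labelled the negative control, and all 6 had the genotype label WT. 22RV1 is an established human prostate adenocarcinoma line. FHT-1015 inhibits both SMARCA4 and SMARCA2, and each sample contributed 1 deposited list of accessible intervals (peaks). The rest of the series held the same 2 treatments in 6 other cancer lines. By label the groups differ in the inhibitor alone, and the question is which accessible regions were found in every control and never with the inhibitor, or the reverse. Each group is bulk culture of 1 line, in which a peak weakened in every cell and a peak lost from some cells cannot be told apart.

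BAF (SWI/SNF) complexes use the ATPase SMARCA4 or its paralog SMARCA2 to slide or evict nucleosomes. They keep many enhancers open, while most promoters of widely used genes also have other means of staying free of nucleosomes. Prostate luminal cells depend on FOXA1, a pioneer factor that binds nucleosomal DNA and acts at enhancers with HOXB13 and GATA2. Androgen induces genes such as KLK3 (prostate-specific antigen) in these cells.

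A region was a window of 500 bp around a summit, picked without overlap over all lists of the series, and a sample held a region where one of its peaks overlapped it by at least 100 bp. Of 2141943 such regions, 858549 were held by at least 1 of the 6 samples. A lost region was one held by every DMSO replicate and by none of the FHT-1015 replicates, a gained region the reverse, and a kept region was held by all 6. The lists go down to weak peaks, so each class was also built from peaks reaching 5 on the −log10 q scale, called strict peaks here. A region lost with strict peaks can therefore still hold a weaker peak with FHT-1015. The same calls were made for the 300 bases around a gene start (250 before it and 50 after) for the 15812 genes with a RefSeq promoter entry.

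Promoter windows are described first, since their sequences can be shown. Among 9533 promoters held in all 3 DMSO samples, 136 were lost (1.43%). With strict peaks 275 of 8529 were lost (3.22%). Gained promoters numbered 34 of 8974 held in all 3 FHT-1015 samples (0.379%) and 4 of 7792 with strict peaks (0.0513%). The 7 promoters below were chosen after their values were seen: KLK2, PAGE4 and CREB3L4 as lost promoters of genes known from the prostate, XDH as the lost promoter with the highest peaks, CXCL8 as a lost promoter with an AP-1 match, ONECUT2 as a prostate lineage gene that was kept, and FAM237B as a gained promoter. Sequences are RefSeq promoter entries of GRCh38.p14, read 5′ to 3′ on the gene's strand. Capitals mark matches, on either strand, to the letters searched. FOXA factors were searched as TGTTTAC and AP-1 as TGANTCA. HOXB13 was searched as CAATAAA, GRHL factors as AACCGGT and ETS factors as CCGGAAG. The letters AGATAA stood for the zinc finger family of GATA1 and GATA2. CTCF was searched as AGGNGGC, SP/KLF factors as GGGCGG and NRF1 as GCATGCG. A match is a run of letters and not a measured site. The positions are chr19:50873189-50873488, plus strand for KLK2, chrX:49829010-49829309, plus strand for PAGE4, chr1:153968000-153968299, plus strand for CREB3L4, chr2:31414693-31414992, minus strand for XDH, chr4:73740319-73740618, plus strand for CXCL8, chr18:57435124-57435423, plus strand for ONECUT2, and chr7:90321255-90321554, minus strand for FAM237B.
KLK2: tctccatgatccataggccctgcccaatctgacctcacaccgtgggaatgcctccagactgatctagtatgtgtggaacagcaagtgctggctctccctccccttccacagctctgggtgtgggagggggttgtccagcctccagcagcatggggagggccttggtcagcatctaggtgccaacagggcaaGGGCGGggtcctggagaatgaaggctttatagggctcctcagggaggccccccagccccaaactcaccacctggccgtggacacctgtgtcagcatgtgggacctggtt
PAGE4: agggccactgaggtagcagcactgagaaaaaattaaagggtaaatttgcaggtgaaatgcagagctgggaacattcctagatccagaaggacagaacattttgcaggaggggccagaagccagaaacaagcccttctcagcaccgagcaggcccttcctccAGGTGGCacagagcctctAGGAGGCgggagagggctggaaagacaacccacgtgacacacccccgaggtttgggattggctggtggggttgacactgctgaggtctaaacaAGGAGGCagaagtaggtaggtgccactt
CREB3L4: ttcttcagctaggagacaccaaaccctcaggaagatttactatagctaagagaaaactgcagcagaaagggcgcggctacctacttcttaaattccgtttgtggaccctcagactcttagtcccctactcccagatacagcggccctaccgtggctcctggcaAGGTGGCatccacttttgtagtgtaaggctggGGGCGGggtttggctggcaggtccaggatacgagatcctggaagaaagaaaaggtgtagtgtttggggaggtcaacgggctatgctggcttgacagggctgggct
XDH: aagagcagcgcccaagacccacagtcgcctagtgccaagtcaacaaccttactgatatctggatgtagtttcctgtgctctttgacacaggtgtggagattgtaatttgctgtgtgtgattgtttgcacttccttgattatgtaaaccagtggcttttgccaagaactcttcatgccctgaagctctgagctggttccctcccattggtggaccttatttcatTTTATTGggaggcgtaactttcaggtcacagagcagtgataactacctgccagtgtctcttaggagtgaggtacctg
CXCL8: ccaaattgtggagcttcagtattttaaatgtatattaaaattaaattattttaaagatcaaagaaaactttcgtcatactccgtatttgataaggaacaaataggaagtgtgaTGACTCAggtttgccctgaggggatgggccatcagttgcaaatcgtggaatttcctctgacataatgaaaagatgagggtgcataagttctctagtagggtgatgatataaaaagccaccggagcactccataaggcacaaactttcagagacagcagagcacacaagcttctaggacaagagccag
ONECUT2: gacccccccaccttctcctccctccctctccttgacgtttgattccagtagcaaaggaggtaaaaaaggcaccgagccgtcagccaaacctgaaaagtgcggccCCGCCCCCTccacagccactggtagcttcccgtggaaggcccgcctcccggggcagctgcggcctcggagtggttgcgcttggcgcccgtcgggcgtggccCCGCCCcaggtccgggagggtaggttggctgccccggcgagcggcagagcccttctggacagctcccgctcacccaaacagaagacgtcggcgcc
FAM237B: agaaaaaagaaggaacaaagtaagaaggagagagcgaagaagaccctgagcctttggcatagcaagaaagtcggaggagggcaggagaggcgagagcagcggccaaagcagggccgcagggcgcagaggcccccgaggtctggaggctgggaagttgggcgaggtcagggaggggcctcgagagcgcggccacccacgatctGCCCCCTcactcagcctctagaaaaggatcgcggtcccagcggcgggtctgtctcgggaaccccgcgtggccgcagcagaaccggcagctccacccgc

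KLK2 encodes a kallikrein protease of the prostate and is a classical androgen target. Over its promoter the peak's fold enrichment over background was 5.88, 7.65 and 9.54 in DMSO replicates 1, 2 and 3, and no FHT-1015 sample had a peak there. The summits lay at −218 to −176 bp from the KLK2 start. The sequence holds 1 match to the SP/KLF letters. PAGE4, a prostate-associated gene of the X chromosome, had folds of 9.40, 8.42 and 9.14 with DMSO and no peak with FHT-1015. Its promoter holds 3 CTCF matches. CREB3L4, a prostate-enriched bZIP factor, had folds of 5.45, 3.97 and 4.14 and no peak with FHT-1015. The same peaks lie over the promoter of SLC39A1, a zinc transporter gene on the opposite strand, so they cannot be assigned to either gene.

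XDH encodes xanthine dehydrogenase. The weakest of its DMSO peaks was the highest among the promoters lost with strict peaks, with folds of 25.9, 22.6 and 25.5 in the DMSO replicates, against a single weak peak of 4.75 in FHT-1015 replicate 2 and none in the other 2. CXCL8, the gene of the chemokine interleukin-8, went from folds of 13.1, 11.2 and 16.6 to no peak in any FHT-1015 sample, and its promoter has 1 AP-1 match. ONECUT2 encodes a homeobox factor active in advanced prostate cancer. Its promoter had folds of 14.3, 20.4 and 20.8 with DMSO and 21.9, 22.7 and 21.6 with FHT-1015, so the group ranges did not meet, with the FHT-1015 samples the higher. FAM237B had no peak with DMSO and folds of 5.69, 5.79 and 5.93 with FHT-1015. Folds are the authors' values within each list, and lists of different depth give different folds for the same openness.

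Sequence content differed between the promoter classes as a description of these 300-base windows. The ETS letters were in 4.36% of the 275 promoters lost with strict peaks, in 23.6% of the 7480 kept with strict peaks and in 14.2% of all promoters. AP-1 letters went the other way, at 11.6% of lost, 2.99% of kept and 5.76% of all promoters. SP/KLF letters were in 66.2%, 78.0% and 58.5%, and NRF1 letters in 2.91%, 7.93% and 5.14%. Median GC content was 64.7% in lost and 66.3% in kept promoters, with a median of 20 and 28 CpG dinucleotides. The part of this base composition in the shares above was not tested. The 136 promoters lost in the deposited lists had a median GC content of 58.5%. They held ETS letters in 5.15%, AP-1 letters in 8.82% and SP/KLF letters in 47.8%. For SP/KLF the lost promoters were thus below all promoters in the deposited lists and above them with strict peaks. The other shares, in the order lost with strict peaks, kept with strict peaks and all promoters, were 2.91%, 2.05% and 2.62% for FOXA, 3.27%, 1.71% and 2.83% for HOXB13, 7.64%, 3.53% and 7.55% for AGATAA, 0.364%, 1.11% and 0.879% for GRHL and 46.5%, 48.7% and 42.1% for CTCF.

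FHT-1015 samples held fewer strong peaks, while the lengths of the full lists overlapped. The deposited lists held 331713, 297640 and 240484 peaks in DMSO replicates 1, 2 and 3 and 371713, 267505 and 323159 in FHT-1015 replicates 1, 2 and 3, with overlapping groups (exact permutation test, two-sided, p = 0.5, adjusted p = 0.563). Strict peaks numbered 58095, 79003 and 66459 with DMSO and 37389, 41410 and 41820 with FHT-1015. The groups did not overlap, and FHT-1015 samples had on average 59.3% as many (40206 ± 2448 against 67852 ± 10523, SD, n = 3 each; mean log2 difference −0.75; exact permutation p = 0.1, adjusted p = 0.164). With 3 against 3 samples 0.1 is the lowest p this exact test can give, so no single value here could pass 0.05, and adjusted values are Benjamini-Hochberg over 18 tests.

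The lists hold no read totals, so depth itself was not measured. The background recovered from each list was 0.702, 0.664 and 0.532 with DMSO and 0.768, 0.894 and 1.023 with FHT-1015, without overlap. After every list was thinned to the same background of 0.266, 59954, 75382 and 76780 peaks passed −log10 p of 5 with DMSO and 42945, 37731 and 33129 with FHT-1015, or 53.7% of the DMSO mean. At equal background the FHT-1015 samples again lay below every DMSO sample. Background can be higher through more reads or through a lower share of reads in peaks, which cannot be told apart here.

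**Figure D1:**
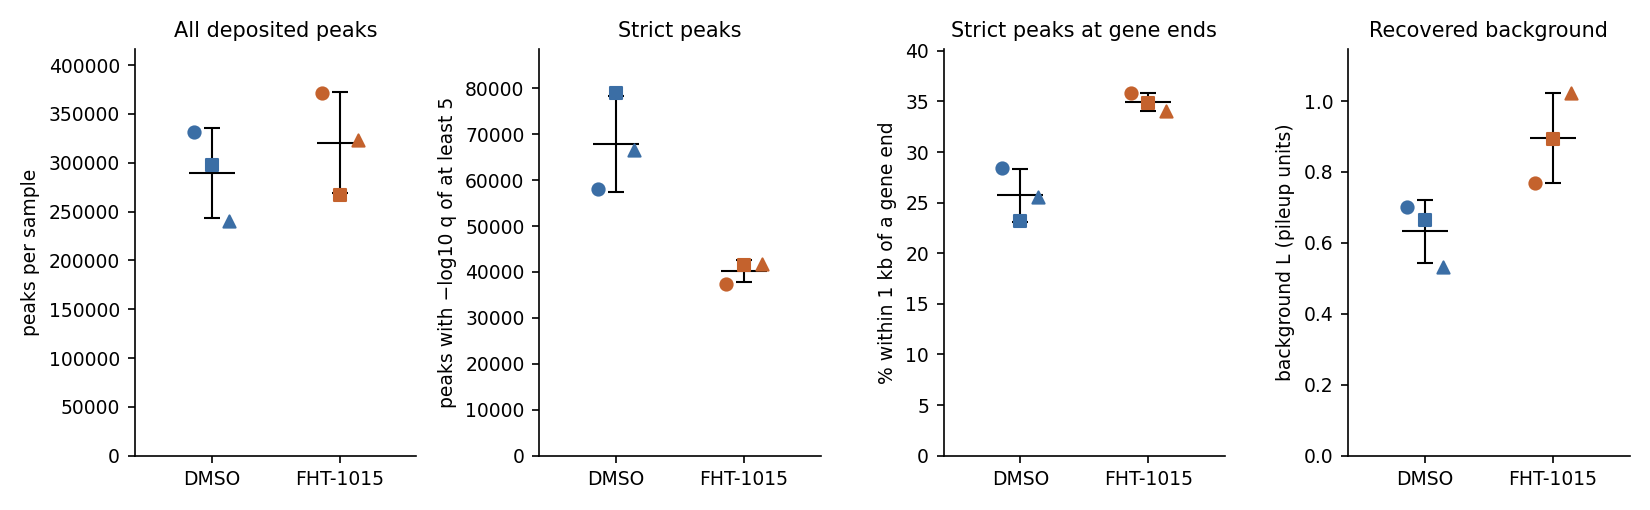
Values per sample: all deposited peaks, strict peaks (−log10 q of at least 5), the percent of strict peaks within 1 kb of a gene end, and the recovered background. Points are replicates 1 (circle), 2 (square) and 3 (triangle), and lines give the mean ± SD (n = 3). Strict peaks, the gene-end share and the background separate the groups, while the full lists overlap.

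The peaks that remained strong lay closer to genes. Of strict summits, 28.4%, 23.2% and 25.6% lay no more than 1 kb from a protein-coding gene's start or end (a gene end, below) with DMSO, and 35.9%, 34.9% and 34.1% with FHT-1015. The mean share was 25.7% ± 2.62 and 34.95% ± 0.882 (SD, n = 3 each) without overlap, a difference of 9.21 percentage points (exact permutation p = 0.1, adjusted p = 0.164). In lists of equal length, the 10000 strongest peaks of each sample, it was 49.6%, 49.5% and 49.98% against 62.2%, 64.0% and 64.2%, a difference of 13.7 percentage points (exact permutation p = 0.1, adjusted p = 0.164). The difference was smaller in longer lists, 8.16 points among the 20000 strongest peaks and 2.33 points among the 40000 strongest (exact permutation p = 0.1 each). Measured to the gene start, where the strand is known, the strict share went from 20.8% ± 2.22 to 28.8% ± 0.855. Near the far end of the same genes it went from 1.97% ± 0.0996 to 2.40% ± 0.0466. The difference was larger at starts than at far ends, in percentage points.

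Lost regions outnumbered gained ones with all 6 samples, most of all among strong peaks. In the deposited lists 12898 of 71738 regions held by all 3 DMSO samples were lost (18.0%), and 5237 of 49585 regions held by all 3 FHT-1015 samples were gained (10.6%). With strict peaks 10370 of 39420 were lost (26.3%) and 99 of 22142 gained (0.447%). A strict call in all 3 samples of one group with no peak of any strength in the other gave 3239 lost (8.22%) and 18 gained (0.0813%). In thinned lists 8683 of 31089 were lost (27.9%) and 60 of 14409 gained (0.416%). Between the deposited and the strict lists the gained class shrank far more than the lost class. In the deposited lists the order turned without an FHT-1015 replicate: without replicate 1, 2 or 3 there were 17765, 16919 and 16872 lost and 18821, 24769 and 19198 gained regions. It also turned in 2 of the 9 choices of 2 against 2 samples, both without FHT-1015 replicate 2, with 30184 lost and 32240 gained and with 27830 lost and 30243 gained regions. With strict peaks lost regions were more numerous in all 9 choices. A region just outside the lost class, held by all 3 DMSO samples and 1 FHT-1015 sample, was found 12862 times in the deposited lists and 4431 times with strict peaks.

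**Figure D2:**
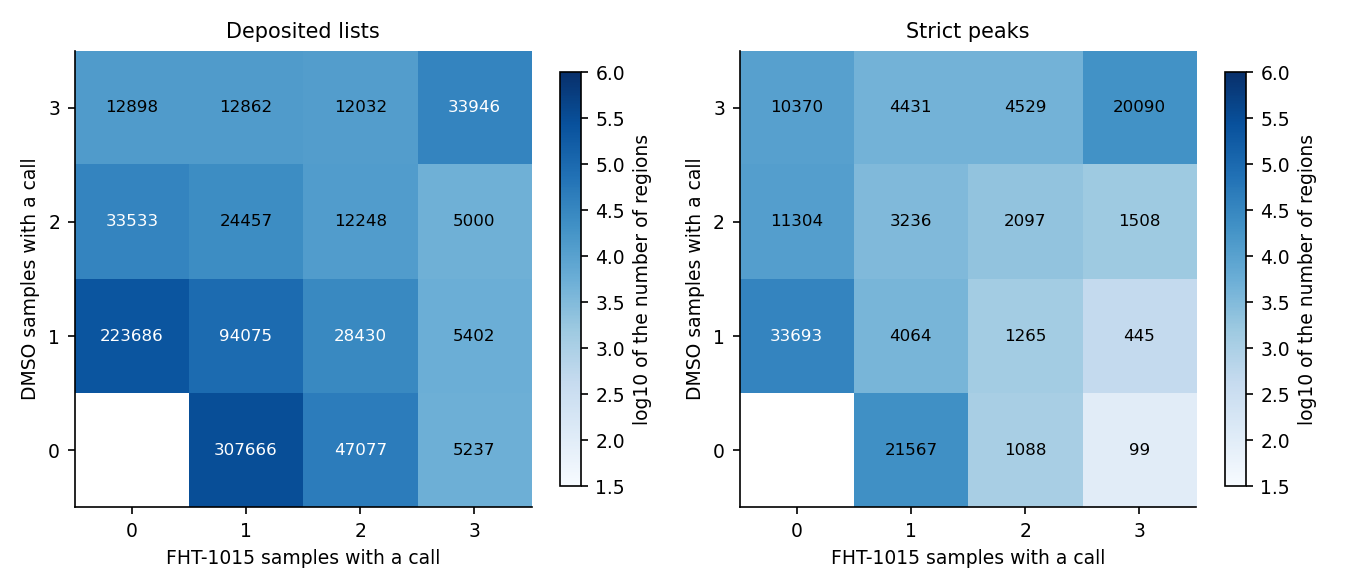
Number of regions by how many DMSO samples (vertical) and FHT-1015 samples (horizontal) held them, in the deposited lists and with strict peaks, with color as the log10 of the number. The top left cell is the lost class and the bottom right the gained class: 12898 and 5237 in the deposited lists, 10370 and 99 with strict peaks.

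Samples that took no part in choosing a region gave a contrast of the same direction for losses. Regions were chosen from 2 DMSO and 2 FHT-1015 samples and then looked up in the pair left out, for all 9 pairs. Of 13481 to 19372 strict lost regions so chosen, 62.5% to 86.6% were strict in the DMSO sample left out and 9.59% to 14.8% in the FHT-1015 sample left out. The 2 ranges did not meet. Of 583 to 1034 strict gained regions so chosen, 26.1% to 40.05% were strict in the FHT-1015 sample left out and 26.9% to 52.5% in the DMSO sample left out. For gains the ranges overlapped. In the deposited lists gained regions were found again in 22.5% to 30.4% of cases with FHT-1015 and 13.7% to 24.6% with DMSO, and lost regions in 49.96% to 60.8% with DMSO and 20.3% to 25.4% with FHT-1015.

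Lost regions were modest peaks by their height. The classes were made from the same calls, and a weak peak more easily misses the call threshold in another sample. The rule therefore sets part of this order by itself, and the values below are a description. Median folds in the DMSO replicates were 4.70, 5.46 and 5.22 for lost and 8.86, 11.7 and 10.8 for kept regions, and 25.1% of lost against 79.97% of kept regions were strict in all 3 DMSO samples. Lost regions that were strict with DMSO and had no peak with FHT-1015 had medians of 7.47, 9.41 and 8.57. Gained regions were weaker still, with medians of 3.39, 3.70 and 3.46 in the FHT-1015 replicates, and 0.344% were strict in all 3.

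Lost regions lay farther from genes than kept regions. Of the 12898 lost regions 5.06% were within 1 kb of a gene end (exact Clopper-Pearson 95% interval, counting error only, 4.68% to 5.45%), with a median distance of 52.6 kb. Kept regions were there in 39.0% (38.4% to 39.5%), with a median of 5.77 kb. Gained regions were there in 5.84% (5.22% to 6.51%), with a median of 29.8 kb. Regions held by any of the 6 samples had 5.08% and a median of 45.1 kb, so the gene-end shares of lost and gained regions were near that of all regions, and the share of kept regions was far above it. The 99 gained regions with strict peaks had a share of 28.3% and a median of 8.40 kb, against 8.73% and 39.2 kb for strict lost and 49.9% and 1.03 kb for strict kept regions. About equal parts lay inside a gene: 48.3% of lost, 50.6% of gained and 44.1% of kept regions.

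The percent lost was higher at each step of distance. Among strict DMSO regions it was 6.95% within 1 kb of a gene end, 24.5% at 1 to 5 kb, 30.98% at 5 to 10 kb, 35.4% at 10 to 50 kb, 38.8% at 50 to 100 kb and 42.01% beyond 100 kb. Thinned lists gave 8.70% and 45.3% in the nearest and the farthest bin. The order was the same at each strength. For strength the 37980 strict DMSO regions with their own summit in all 3 samples were used. In the weakest of 5 near-equal bins of DMSO strength 20.3% of gene-end regions and 58.0% of regions beyond 10 kb were lost, and in the strongest bin 0.435% and 10.1%. Within every bin the lost share was lowest at gene ends, higher at 1 to 10 kb and highest beyond 10 kb.

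**Figure D3:**
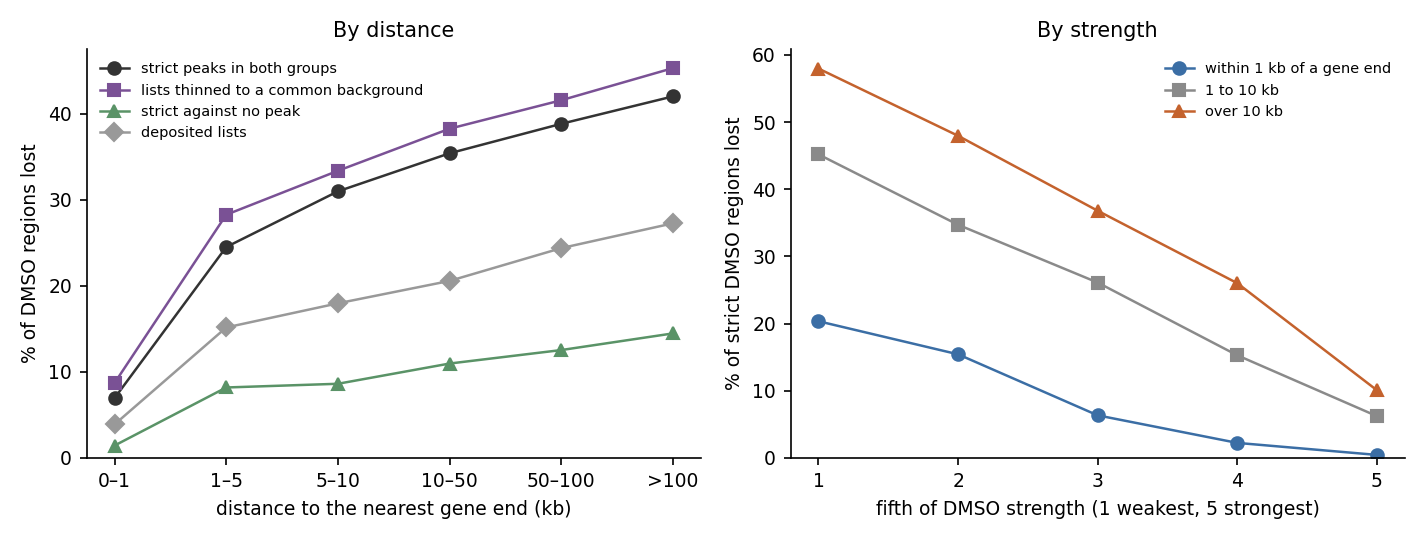
Left, percent of regions held by all 3 DMSO samples that were lost, by distance to the nearest gene end, under 4 ways of calling. Right, the percent lost of the 37980 strict DMSO regions with their own summit, by bin of DMSO strength (the lowest within-list percentile of the 3 samples) and location. Each line on the left rises with distance, from 6.95% to 42.01% for strict peaks, and the lines on the right keep their order in every bin.

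Neighbors of lost regions were more often lost, and chromosome 19 had the lowest share lost, both given as descriptions. Where the nearest other strict DMSO region was within 5 kb, that neighbor was lost for 31.5% of lost and 12.8% of other regions, and at 20 to 100 kb for 34.6% and 25.6%. On chromosome 19, rich in zinc finger genes, 7.40% of 1311 strict regions were lost, against 18.4% on chromosome 22 and up to 30.2% on chromosome 3. Of the 220 strict regions of chromosome 19 beyond 10 kb from a gene end, 20% were lost, and on the other chromosomes 30.7% to 42.4%. Chromosome 19 also had the highest share of strict DMSO regions within 1 kb of a gene end, 56.0%.

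Strict lost regions were seldom strict in the other cell lines. Of the 10370 strict lost regions 71.1% were strict in no other line (in at least 2 of 3 DMSO samples), against 8.70% of strict kept regions. By peaks of any strength 47.2% of the strict lost and 3.27% of the strict kept regions were called in no other line, so most strict lost regions had a weaker or a strict peak elsewhere. Of all regions held by any of the 6 samples 88.5% were strict in no other line. Where such a region was strict in all 3 DMSO samples of another line, it was lost there too in 72.6% of 208 cases in 92-1, 34.7% of 636 in RD, 32.5% of 862 in MV411, 22.95% of 244 in HCT116, 13.2% of 524 in A375 and 12.2% of 930 in DU4475. Strict 22RV1 regions that were not lost in 22RV1 were lost in those lines in 0.400% (A375) to 9.27% (92-1). Strict peaks per sample were on average fewer with FHT-1015 in each of those lines. They numbered 35338 ± 27428 with DMSO and 7901 ± 10703 with FHT-1015 in 92-1 (SD, n = 3). Means were 45253 and 21025 in RD, 112752 and 53196 in MV411 and 24275 and 22955 in HCT116. In A375 they were 50970 and 42432, and in DU4475 54756 and 40501. The part of this in the shares lost there was not tested. Whether the size of the effect differed between lines was tested for 4 measures against each of the 6 lines (24 exact permutation tests over 400 assignments). The lowest exact permutation p, 0.025, was for the number of deposited peaks against 92-1, with an adjusted p of 0.54. The assignments shuffled treatment within both lines, so effects present in both widen the spread that a difference is set against. The test therefore cannot decide whether the lines respond alike or differently.

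The labelled cell type was checked on luminal markers. Of 9 markers 8 had a strict peak within 20 kb in all 3 DMSO samples, the exception being HOXB13, a prostate homeobox factor, with 1, 0 and 0. FOXA1 had 1, 5 and 3 strict peaks within 20 kb with DMSO and 2, 4 and 3 with FHT-1015. Within 100 kb it had 2, 9 and 11 with DMSO and 2, 4 and 3 with FHT-1015. The FOXA1 promoter window was held in all 6 samples, with low folds of 3.66, 4.38 and 4.59 with DMSO and 6.03, 4.67 and 4.72 with FHT-1015. Markers of other types were near strict DMSO peaks as well: 7 of 7 neuroendocrine, 5 of 5 colon, 5 of 6 melanocyte, 3 of 4 basal, 4 of 6 myeloid, 3 of 5 stromal and 2 of 5 muscle genes. Peaks near a gene therefore did not by themselves set the labelled lineage apart in these lists.

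Around transcription factors of the prostate lineage the percent lost depended on the way of calling. Within 100 kb of the 15 genes 28 of 85 strict DMSO regions were lost (32.9%) and none was gained, and beyond 1 kb of a gene end 26 of 57 were (45.6%), beside 26.3% and 35.9% over all regions. In the deposited lists 33 of 178 were lost (18.5%), beside 18.0% of all regions, and for a strict call against no peak 5 of 85 (5.88%), beside 8.22%. The list was thus above all regions with strict peaks, near them in the deposited lists and below them against no peak. As a share of all strict summits, peaks at these genes were 0.244%, 0.228% and 0.230% with DMSO and 0.1685%, 0.208% and 0.187% with FHT-1015, lower without overlap (exact permutation p = 0.1, adjusted p = 0.164). Over all deposited peaks the mean shares were 0.200% and 0.196% (difference −0.00353 percentage points, exact permutation p = 0.5). Of the 15 genes 10 had fewer strict peaks in every FHT-1015 sample than in every DMSO sample and none had more. Over all 19974 genes these shares were 37.8% and 0.345%. Genes without strict DMSO peaks nearby cannot show fewer, and the part of peak number in these shares was not tested.

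SOX9, a factor of prostate bud development and stem-like cells, had 5 strict DMSO regions of which 4 were lost. Each of the 4 kept a weaker peak in at least 1 FHT-1015 sample, and in the deposited lists SOX9 lost none of 6 regions. The strict lost region 93.2 kb from its nearer end had folds of 11.4, 10.9 and 15.7 with DMSO and 3.96, none and none with FHT-1015. GRHL2, which keeps epithelial enhancers open, lost 4 of 6, and its strict peaks within 100 kb went from 13, 16 and 15 to 2, 3 and 3. FOXP1, a forkhead factor, lost 5 of 14, with 23, 37 and 25 strict peaks against 13, 12 and 10. KLF5, an epithelial zinc finger factor, lost a region 56.2 kb beyond its end with folds of 16.2, 14.7 and 15.4, where no FHT-1015 sample had a summit. ONECUT2 kept its promoter, as shown above, and lost a region 6.77 kb beyond its far end, with folds of 12.8, 15.9 and 11.5 and no summit with FHT-1015. TFAP4 lost 4 of 10 strict regions and ELF3 2 of 9. All of these TFAP4 and ELF3 regions kept a weaker peak in at least 1 FHT-1015 sample. Some strict lost regions counted at FOXP1 lay nearest to EIF4E3, and some at TFAP4 nearest to GLIS2 or CORO7. FOXA1 and HOXB13 had 1 strict DMSO region each and lost none. In the deposited lists FOXA1 lost 1 of 9 regions and gained 2, and HOXB13 lost 2 of 8 and gained 1.

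Androgen-induced genes lost strict regions at about the rate of all strict regions. Within 100 kb of the 25 genes 41 of 158 strict regions were lost (25.9%, beside 26.3% of all regions), with 1 gained. Beyond 1 kb of a gene end 33 of 94 were lost (35.1%, beside 35.9%). Their share of strict summits was 0.411%, 0.358% and 0.372% with DMSO and 0.431%, 0.408% and 0.385% with FHT-1015, with overlap (exact permutation p = 0.3, adjusted p = 0.386). At 14 of the 25 genes strict peaks were fewer in every FHT-1015 sample than in every DMSO sample, and at none were they more. Over all 19974 genes these shares were 37.8% and 0.345%, so by this count the list lay above all genes for fewer peaks. A gene with no strict DMSO peak nearby cannot show fewer, and the part of peak number in this count was not tested. KLK3, KLK2 and KLK4 share their windows. Regions were counted once, while each of these genes counted separately among the 25.

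KLK3 and KLK2 are neighbors on chromosome 19, with starts 18.5 kb apart. A summit about 3 kb before the KLK3 start had folds of 6.64, 7.60 and 9.66 with DMSO. FHT-1015 replicate 1 had its nearest summit at −2.71 kb with a fold of 3.32, and replicates 2 and 3 had 4.41 and 5.09. Inside KLK3, at 50858847 to 50859346 of chromosome 19, summits of 8.84, 10.3 and 10.9 with DMSO stood against none, 4.07 and 3.76 with FHT-1015. A summit about 15.7 kb after the KLK3 start, ahead of KLK2, behaved differently: 4.41, 8.80 and 4.15 with DMSO and 4.01, 6.50 and 5.41 with FHT-1015, with overlap. So within one locus the KLK2 promoter and the KLK3 gene body had no strict peak with FHT-1015, while the summit between them was found in all 6 samples.

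**Figure D4:**
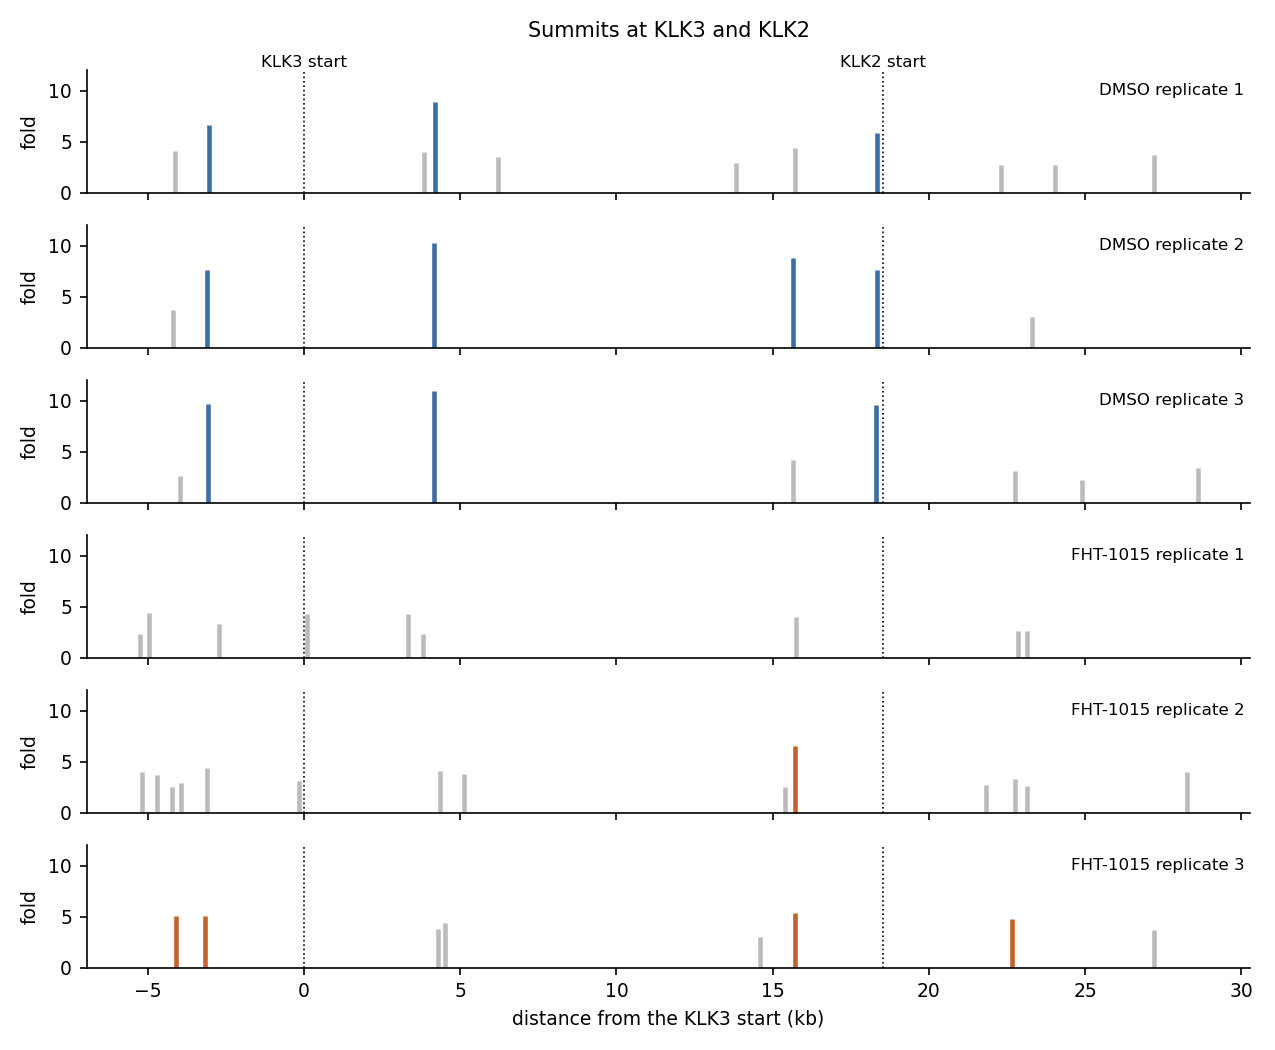
Summits in each sample around KLK3 and KLK2, by distance from the KLK3 start, with height as the deposited fold enrichment. Colored lines are strict peaks, grey lines weaker ones, and dotted lines the 2 gene starts. The DMSO samples share strict summits near −3 kb, inside KLK3 and at the KLK2 start that are lower or missing with FHT-1015, and the summit near 15.7 kb is present in all 6 samples.

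NDRG1, a stress and differentiation gene induced by androgen, lost 7 of 12 strict regions, and its strict peaks went from 18, 16 and 19 to 6, 7 and 6. PMEPA1, an androgen-induced inhibitor of TGF-beta signaling, lost 5 of 8. One lay 32.4 kb before its start, with folds of 10.1, 18.5 and 18.9 with DMSO and none, 3.50 and none with FHT-1015. NNMT, nicotinamide N-methyltransferase, lost 3 of 10. A region 2.45 kb outside the gene was among the highest of the list, with folds of 16.9, 22.9 and 28.8 against 4.84, none and none. MED28, a Mediator subunit, lost 4 of 9. Some of these lost regions, counted within 100 kb, lay nearest to another gene. That was TG or CCN4 at NDRG1, PCK1 at PMEPA1, ZBTB16 at NNMT and CLRN2 or LAP3 at MED28. STEAP4, a metalloreductase, kept a promoter peak that was lower in each FHT-1015 sample: 15.5, 25.4 and 25.1 against 4.81, 7.46 and 7.53. ALDH1A3, a retinaldehyde dehydrogenase, had promoter folds of 6.52, 6.57 and 8.30 with DMSO and none, none and 3.12 with FHT-1015. HERC3, PTGER4, GNMT, ACP3, EAF2 and C1orf116 lost no strict region by this count. The ACP3 promoter was still lower with FHT-1015, with folds of 13.8, 15.9 and 14.7 against none, 5.64 and 3.95. The GNMT promoter was lower as well, with 10.83, 12.37 and 13.96 against 8.49, 7.84 and 4.58. Promoter folds of HERC3, PTGER4, EAF2 and C1orf116 overlapped between the groups.

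The AP-1, housekeeping, BAF and epithelial lists had lower percentages lost than the 26.3% of all regions. The AP-1 family (JUN and FOS genes and their partners) lost 8 of 87 strict regions (9.20%), housekeeping genes 16 of 162 (9.88%), BAF subunit genes 22 of 178 (12.4%) and epithelial genes 12 of 71 (16.9%). Beyond 1 kb of a gene end the shares were 15.6%, 20.7%, 21.7% and 34.4%, so the epithelial list was near the 35.9% of all regions there. The share of strict summits at AP-1 genes was 0.203% ± 0.0280 with DMSO and 0.273% ± 0.0140 with FHT-1015, at BAF subunit genes 0.393% ± 0.0357 and 0.540% ± 0.00530, and at housekeeping genes 0.334% ± 0.0412 and 0.486% ± 0.00581 (SD, n = 3; each higher without overlap, exact permutation p = 0.1, adjusted p = 0.164). Over all deposited peaks the differences were 0.0219 points at AP-1 genes (exact permutation p = 0.3), 0.0417 at BAF subunit genes (p = 0.2) and 0.0187 at housekeeping genes (p = 0.4). The gene-end share of all strict summits was higher in the same samples, as given above, and its part in these differences was not tested. The promoters of both inhibitor targets had strict peaks in all 6 samples: SMARCA4 had folds of 9.92, 11.6 and 16.6 with DMSO and 16.1, 14.3 and 11.5 with FHT-1015, and SMARCA2 15.98, 18.96 and 16.8 against 23.7, 21.2 and 19.9. FOS, an early-response gene, had a promoter peak of 6.44, 14.7 and 9.64 with DMSO and in only 1 of 3 FHT-1015 samples (6.94). JUN, its partner, had 13.2, 13.8 and 13.1 against 11.7, 16.6 and 12.02.

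Among the marker lists the basal genes (TP63, KRT5, KRT14 and KRT15) lost 8 of 17 strict regions (47.1%, beside 26.3% of all regions). KRT14 lost 5 of 12 and KRT15 4 of 9, in overlapping windows that also hold KRT19 of the epithelial list. KRT19 itself lost 4 of 9. TP63, the basal master factor, lost 3 of 5 and went from 5, 9 and 10 strict peaks within 100 kb to 2, 3 and 3. KRT5 had no region that was strict in all 3 DMSO samples. Neuroendocrine genes lost 11 of 60 (18.3%), with CHGA (chromogranin A) losing 5 of 5 and having 8, 9 and 7 strict peaks with DMSO against 1, 2 and 2. In the deposited lists CHGA lost 1 of 6 regions and gained 1. Its window of 100 kb also covers part of ITPK1, named below, so the counts of these 2 genes can share regions. Luminal genes lost 9 of 33 (27.3%), near the share of all regions. Melanocyte genes lost 8 of 36 (22.2%), colon genes 8 of 32 (25%), myeloid genes 5 of 28 (17.9%), muscle genes 2 of 15 (13.3%) and stromal genes none of 8, each below that share. In the deposited lists the basal genes lost 12.5% of 32 and the luminal genes 14.8% of 88, below the 18.0% of all regions. The melanocyte genes lost 22.03% of 59 there, above it.

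**Figure D5:**
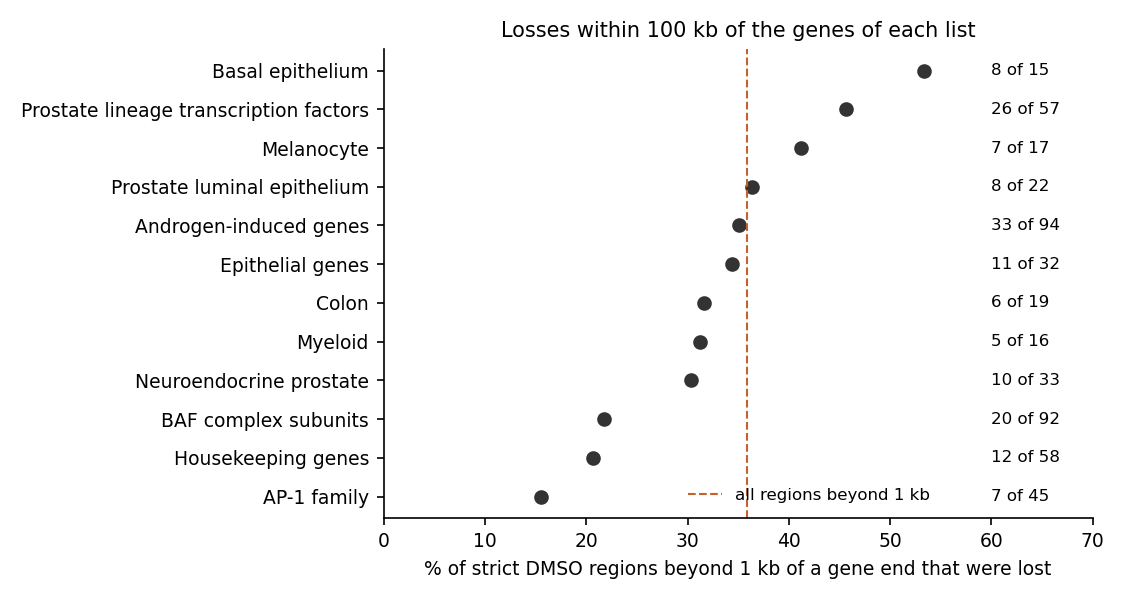
Percent of strict DMSO regions beyond 1 kb of a gene end that were lost, within 100 kb of the genes of each list with at least 10 such regions. The numbers give lost of strict regions, and the dashed line is the 35.9% of all regions. Prostate lineage factors (45.6%) and basal genes (53.3%) lie to the right of the line, as do the melanocyte and, closely, the luminal lists, and AP-1, housekeeping and BAF genes between 15.6% and 21.7%.

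Of the 10 strongest single losses 7 lay inside a gene and 3 outside. Ranked by the weakest of the 3 DMSO calls, and limited to regions with their own summit, the first 10 lay nearest to FAM167A, KIAA0040, PTPRM, TMEM132B, GALC, SLC4A3, DNAAF11, TRAPPC9, DPP6 and DLX6, 1.597 to 362 kb from a gene end. Inside PTPRM, a receptor tyrosine phosphatase gene (chr18:8162746-8163245), folds were 22.3, 29.1 and 25.6 with DMSO. Outside GALC, which encodes lysosomal galactosylceramidase (chr14:87899149-87899648), they were 17.4, 27.4 and 27.7. Ahead of DLX6, a homeobox gene (chr7:96949740-96950239), they were 15.9, 23.1 and 25.5. All 10 had no summit in any FHT-1015 sample. Except for the region in KIAA0040, strict in 2 other lines, none was strict in another line. The limit to own summits was set after values were seen, since 6 of the 10 first-ranked lost and 9 of the 10 first-ranked gained regions without it were flanks of wider peaks.

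The strongest gains were lower. The first 10 lay nearest to NR4A2, AEBP2, SOX2, DCBLD2, FGF13, SMNDC1, FBXO28, CTSV, ROCK1 and PRPF18, 1.281 to 394 kb from a gene end. The farthest was 394 kb from AEBP2, and the one nearest to PRPF18 lay 192 kb away, inside FRMD4A. Those nearest to FBXO28 and CTSV were 94.7 and 81.8 kb away. Near NR4A2, an orphan nuclear receptor gene (chr2:156335439-156335938), folds were 7.01, 6.14 and 5.58 with FHT-1015 and no DMSO sample had a peak. A region 2.19 kb before SOX2, a pluripotency and neuroendocrine factor (chr3:181709482-181709981), had 6.26, 5.54 and 4.03. In FGF13 (chrX:139203492-139203991) they were 6.64, 7.13 and 5.02.

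Losses were spread over many genes. Counting lost regions by the nearest gene within 100 kb, 5405 of 19974 genes had at least 1 (27.1%) and 3253 had a gained one (16.3%). CHRM2, a muscarinic acetylcholine receptor, and DAPK1, a death-associated kinase, had the most lost regions, 8 each of 18 and 17. They were followed, with 7 each, by ADAMTS18, ARHGAP10, CCDC85A, KCNK10, NCOA2 (a nuclear receptor coactivator), PRKCH (a protein kinase C), SETBP1 and WWC1. With strict peaks TNS3, an adhesion protein gene, led with 10 of 13 lost. ITPK1, RGS8, SLCO2A1 and SPRED2 lost 7 each, of 10, 8, 8 and 10. In the deposited lists TNS3 lost 2 regions, ITPK1 3 and RGS8 5, and SLCO2A1 and SPRED2 lost none. The most gained regions, 5 each, were nearest to CFAP251, CUX1, GTF2IRD1, PRSS38, SFSWAP, SIPA1L2 and SPN, and SIPA1L2 also had 5 lost regions. Genes with more regions have more chances of a lost one, and these counts carry no test.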

How the data were processed

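ATAC-seq libraries of 22RV1 cells (3 DMSO, 3 FHT-1015, 4 h) were made by the original protocol with two-sided bead size selection, per the labels. Each sample has its own narrowPeak list, so replicates were not pooled. Bowtie2, Picard, MACS2, limma and HOMER and the build hg38 are named, per the submitters' processing notes. The sources used here do not give their roles, versions or settings. Each peak's fold enrichment, a ratio of pileup to local background, is the authors' value. The −log10 p and −log10 q are as deposited by the authors. The deposited score is 10 times −log10 p and was not used. The lowest −log10 p was 2.00 in each of the 6 lists, so weak peaks are included. No read totals are given. Pileup and background L were solved for from fold and p, with whole-number pileups for 100% of peaks within 0.01 on −log10 p.

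Peaks on chromosomes 1 to 22 and X were used. Regions, calls and classes are as defined in the text, and coordinates are hg38, written from 1. Distances are to either end of 19974 protein-coding RefSeq genes (GRCh38.p14), since strand and start are known for only 15812 of them (79.2%). Of 144 listed genes 99 had a promoter entry. Thinning drew each pileup binomially to 0.5 of the lowest background. Single values per sample were compared by a two-sided exact permutation test (Python 3.11.15, numpy 2.4.6, scipy 1.17.1), and region classes carry no test. The calls, the recovery of pileups and the tests were checked on simulated lists with planted losses and gains. Members, lists and rules were chosen with earlier results of these data known. The 7 printed promoters and the limit of named regions to those with their own summit were chosen after values were seen. Nothing says the replicates came from separate cultures beyond the label, so p-values measure the spread between these samples. Named regions were the 10 lost and 10 gained whose weakest of 3 calls was strongest, and named genes were those with the most such regions plus members of the lists. Replicate numbers are biological replicates per the labels. No columns of other series were in the files (0). Alternatives were other thresholds, overlaps, windows, region sets and each replicate left out. One lineage factor and its motifs are not reported here.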

Additional observations from a re-analysis of the deposited data

How the results depend on the processing

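The tests rest on 3 samples a group, the lists hold no read counts, and a call depends on depth. The fold of a peak is not comparable between lists of different background. Gained regions depend most on the settings.

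Numbers of lost regions were 6501 with an overlap of 250 bp, 3239 for a strict call against no call and 4810 in lists of the 40000 strongest peaks, against 12898. Numbers of gained regions were 422, 18 and 686 under the same settings, 99 with strict peaks and 60 after thinning, against 5237. The gene-end share of lost, gained and kept regions was, in that order, 6.89%, 13.0% and 60.4% with an overlap of 250 bp, 8.73%, 28.3% and 49.9% with strict peaks, 5.74%, 44.4% and 49.9% for strict against none, 11.3%, 33.3% and 58.7% after thinning, 4.48%, 5.07% and 37.9% with regions from the 6 lists, 8.19%, 29.9% and 51.6% in the 40000 strongest, 2.50%, 3.07% and 32.8% within 500 bp and 12.7%, 14.9% and 48.7% within 5 kb. An overlap of 1 bp moved the kept share to 39.7%. With an own summit and no overlap of 1 bp in the other group, an alternative added after the data were seen, the shares were 3.88%, 4.54% and 37.8%. The kept share was the highest in each of these settings. Of lost, gained and kept regions, 61.3%, 59.0% and 8.60% were called in no other line, and 82.5%, 89.6% and 20.8% were strict in none.

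Without 1 replicate each, lost regions numbered 16872 to 26348 and gained regions 6464 to 24769, since 2 samples choose more regions than 3. Gene-end shares ran from 4.55% to 6.11% for lost, 4.24% to 6.89% for gained and 36.1% to 38.2% for kept regions. Gained regions outnumbered lost ones without any 1 of the FHT-1015 replicates, where a gain needs only 2 calls. Strict peaks stayed fewer with FHT-1015, with log2 differences of −0.85 to −0.63, and the gene-end shares stayed higher, by 7.94 to 10.6 points in strict peaks and 13.4 to 14.4 points in the 10000 strongest. The luminal marker list changed direction without a DMSO or an FHT-1015 replicate (−0.00636 to 0.00505 percentage points), as did the colon list (−0.00588 to 0.00478). In the deposited lists 6 lists changed direction: luminal −0.00293, basal 0.00324, melanocyte 0.000594, muscle −0.00126, colon 0.00270 and stroma −0.000169 percentage points. There the lineage factor list kept its sign at −0.00353 points, and its p was 0.5. The cause was not tested.

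Replicate numbers did not pair the samples: same-numbered samples had correlations of deviations of −0.00843, 0.00392 and −0.00243. With a replicate block (exact sign flips, lowest possible p 0.25) the log2 difference in strict peaks was −0.75 and the gene-end share difference 9.21 points, each with p = 0.25. Neither this test nor the exact permutation test can reach 0.05 with these samples, so no call could change.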
